A study of Rattus norvegicus with 8 samples.

Results

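The solute carrier genes that move amino acids, glucose and related hexoses, and monocarboxylates such as lactate across membranes were examined in rat vascular smooth muscle cells with and without angiotensin II (AngII), a vasoconstrictor peptide that also drives growth of smooth muscle. Members were the genes whose symbol begins with Slc1a, Slc2a, Slc3a, Slc6a, Slc7a, Slc16a, Slc36a, Slc38a or Slc43a and that have a locus of their own symbol in the RNA table. There were 82 of them among 14767 symbols with a locus. Symbols were read through RefSeq accessions, and the locus with the highest mean level stood for each symbol. A further 14 symbols with these prefixes had no matched locus and were not analysed here, among them Slc7a1, a cationic amino acid carrier. The prefix also takes in Slc7a6os, a neighbour of Slc7a6 that does not encode a transporter.

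The cells were primary vascular smooth muscle cells isolated from Sprague-Dawley rats (thoracic aorta) and grown in M199 medium with serum and antibiotics. The control group was untreated. The AngII group had serum withdrawn overnight and then received 0.1 uM AngII for 3 h. Serum withdrawal is stated in the labels for the AngII group only, so it cannot be told apart from AngII here, and how many rats stand behind each library was not stated in the sources used here. RNA-seq and ChIP-seq for the histone marks H3K4me3 and H3K36me3 each had 1 library per condition. No difference could therefore be checked against replicates, and no test was possible.

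These carriers decide which nutrients a cell can take up or release. Slc2 proteins let hexoses down their gradient, the main Slc16 proteins carry lactate and pyruvate with protons, and the Slc1, Slc6, Slc36, Slc38 and Slc43 families carry amino acids or related solutes with or without sodium, chloride or protons. Most Slc7 proteins are light chains that reach the cell surface only when bound to a heavy chain of the Slc3 family, and they exchange one amino acid for another, while the cationic members of Slc7 work alone and bring in arginine and lysine. In growing cells several of these genes are targets of the transcription factor Atf4, which is activated when amino acids run short.

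RNA levels are in FPKM, fragments scaled to transcript length and to library size, so levels can be compared between genes. The authors deposited a lower and an upper bound for each level, which lie 2 SD either side and hold model error only. At 10 FPKM or more the median relative SD was 21.1% in control and 21.0% after AngII. Differences are log2((AngII FPKM + 1)/(control FPKM + 1)), called the log2 ratio. A gene was counted as expressed at 1 FPKM or more in at least 1 library, which held for 38 of the 82 members and 8354 of all symbols. The median expressed symbol had a log2 ratio of -0.22, and ratios are given as deposited. The smooth muscle identity of the cultures showed in Tagln, at 5103 FPKM without and 5244 FPKM with AngII, and Myh11, at 96.5 and 84.7 FPKM. With a locus but not expressed were 6 of 6 endothelial and 5 of 5 adipocyte markers. Of 9 leukocyte markers 3 were, with Ptprc and Cd3e listed at 0. Of 7 adventitial fibroblast markers 6 were expressed, with a median log2 ratio of -0.38. Their part in the results was not tested, and in such bulk RNA fewer cells of a type and less RNA per cell cannot be told apart.

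Most transporter genes differed little between the conditions, and the differences that stood out were in the glucose carriers and in the Slc7 family. Of the 38 expressed members 4 lay 2-fold or more above control (Slc7a8, Slc2a3, Slc7a11 and Slc7a5), which is 10.5% against 3.89% of all expressed symbols. Another 4 were at least 2-fold lower (Slc7a2, Slc2a10, Slc16a4 and Slc2a8), again 10.5%, against 2.96%. Bounds did not overlap for 3 of the higher members and 2 of the lower ones, against 2.71% and 1.58% of all expressed symbols that were past 2-fold with bounds apart. At any fold, bounds were apart for the same 3 and 2 members, against 3.02% and 2.19% of all expressed symbols. The remaining 30 lay within 2-fold, 24 of them within 1.5-fold. Of the 38, 17 had a log2 ratio above 0 and 21 below, with a median of -0.09, while 30% of all expressed symbols (2510 of 8354) lay above 0. Once the median symbol was brought to 0 by scaling, the members split into 24 above and 14 below. Solute carrier genes of all other families passed 2-fold upward in 5 of 124 expressed cases (4.03%) and downward in 1 (0.806%), and their median was -0.19. With that scaling, which multiplies AngII values by 1.19, 6 members passed 2-fold upward and 2 downward. With a pseudocount of 5 in place of 1 the split was 3 and 1.

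**Figure D1:**
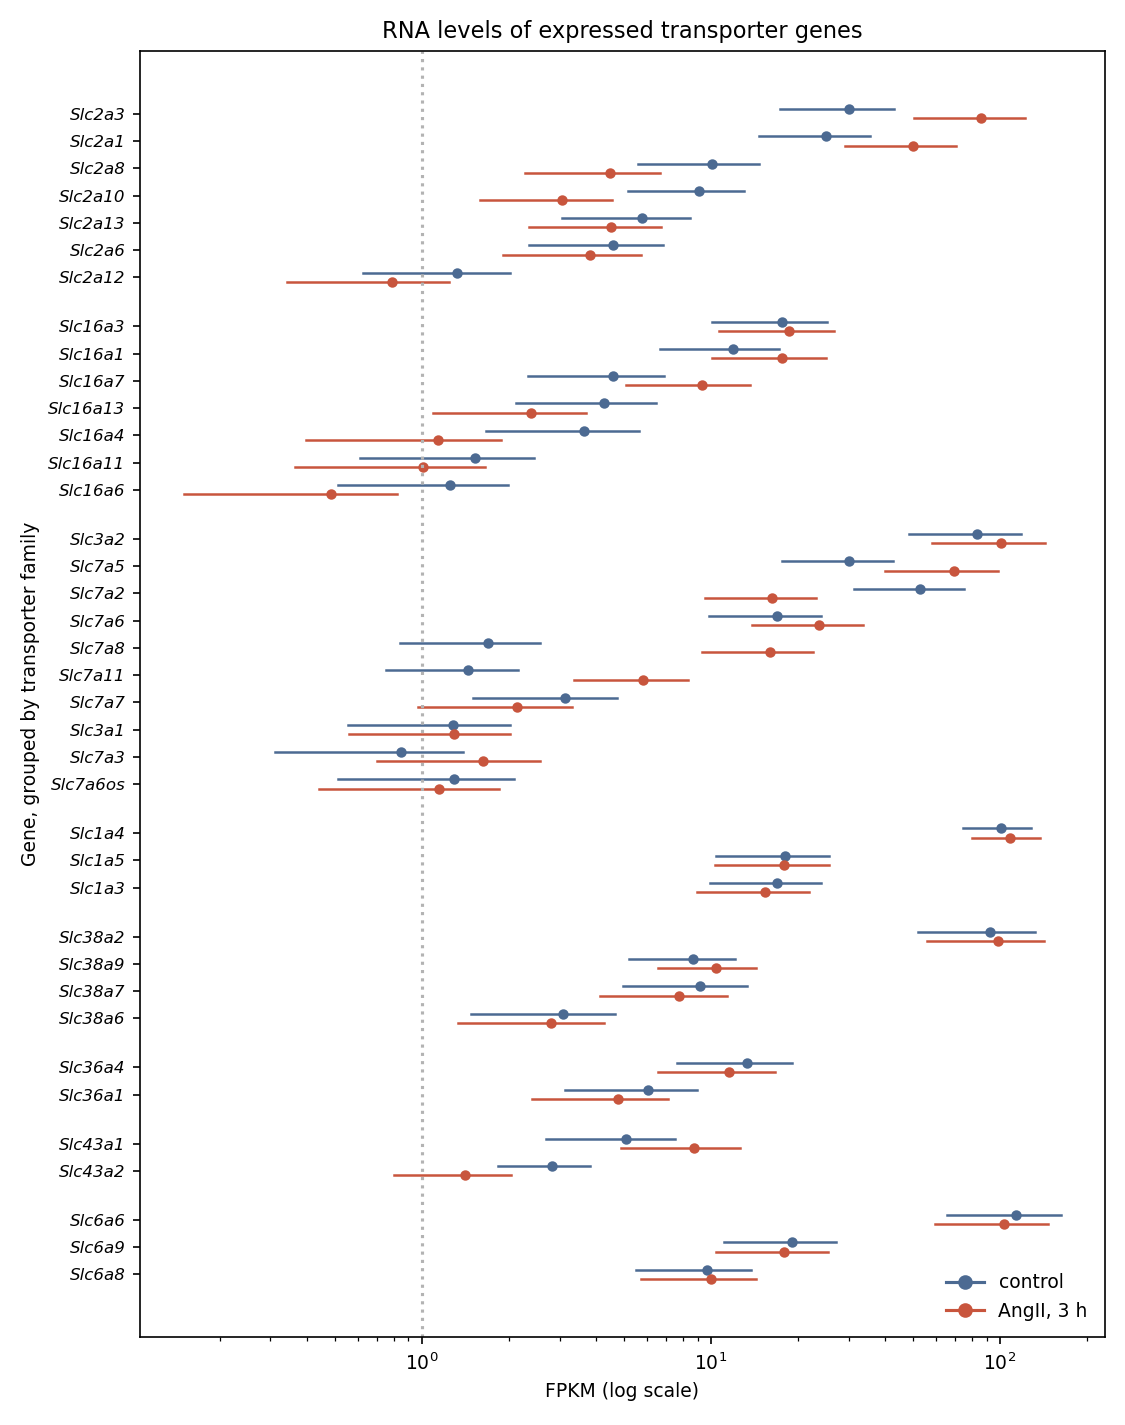
RNA levels of the 38 expressed members in FPKM on a log axis, grouped by family, with control in blue and AngII in red. Lines span the deposited lower and upper bounds of each estimate, and the dotted line marks 1 FPKM. The blue and red bounds separate for Slc2a3, Slc2a10, Slc7a2, Slc7a8 and Slc7a11.

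Among the hexose carriers, Slc2a3 and Slc2a1 were higher after AngII and Slc2a10 and Slc2a8 lower. Slc2a3, which encodes the high-affinity glucose carrier GLUT3, stood at 30.2 FPKM (bounds 17.4 to 43.0) without and 85.9 FPKM (50.2 to 122) with AngII. Its bounds were apart, the log2 ratio was 1.48 (model SD 0.42), and it ranked 171 from the top of the 8354 expressed symbols. The listed locus lies on chromosome 4 from 159210115 to 159221169 in assembly rn4. Slc2a1 encodes GLUT1, the carrier of basal glucose uptake in most cells, and lies on chromosome 5 from 139690803 to 139719021. It stood at 25.1 FPKM (14.7 to 35.6) and 49.95 FPKM (29.2 to 70.7), a log2 ratio of 0.96. Its bounds overlapped, and it passed 2-fold only when AngII values were scaled to the median symbol or to the upper quartile. A second, short locus with the symbol Slc2a1 had 0.501 and 1.61 FPKM.

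Slc2a10 encodes GLUT10, the carrier whose loss causes arterial tortuosity syndrome, a disease of the great arteries. Its RNA stood at 9.08 FPKM (5.16 to 13.0) without and 3.07 FPKM (1.60 to 4.54) with AngII, a log2 ratio of -1.31 with bounds apart (chromosome 3, 156560450 to 156572777). Only 77 expressed symbols had a lower ratio. Slc2a8, an intracellular hexose carrier, stood at 10.1 FPKM (5.60 to 14.7) and 4.47 FPKM (2.28 to 6.66), a log2 ratio of -1.02 with overlapping bounds. Slc2a8 was no longer past 2-fold under either rescaling or with a pseudocount of 5. The proton-coupled inositol carrier Slc2a13 (5.76 and 4.53 FPKM), Slc2a6 (4.60 and 3.83 FPKM) and Slc2a12 (1.32 and 0.792 FPKM) were all slightly lower with overlapping bounds. The log2 ratios of Slc2a13 (-0.29) and Slc2a6 (-0.21) were close to the median of all expressed symbols, and that of Slc2a12 was -0.37. Slc2a4, the insulin-regulated carrier GLUT4 of muscle and fat, was below the minimum at 0.320 and 0.140 FPKM.

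Added over all 11 Slc2 members, the level was 86.6 FPKM without and 153 FPKM with AngII. Slc2a1 and Slc2a3 together made up 63.8% of this sum in control and 88.9% after AngII. Slc2a3 had the highest level of the family in both conditions. It was close to Slc2a1 in control (30.2 and 25.1 FPKM), beside several weaker carriers. After AngII the bounds of Slc2a3 and Slc2a1 also overlapped (50.2 to 122 and 29.2 to 70.7 FPKM).

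**Figure D2:**
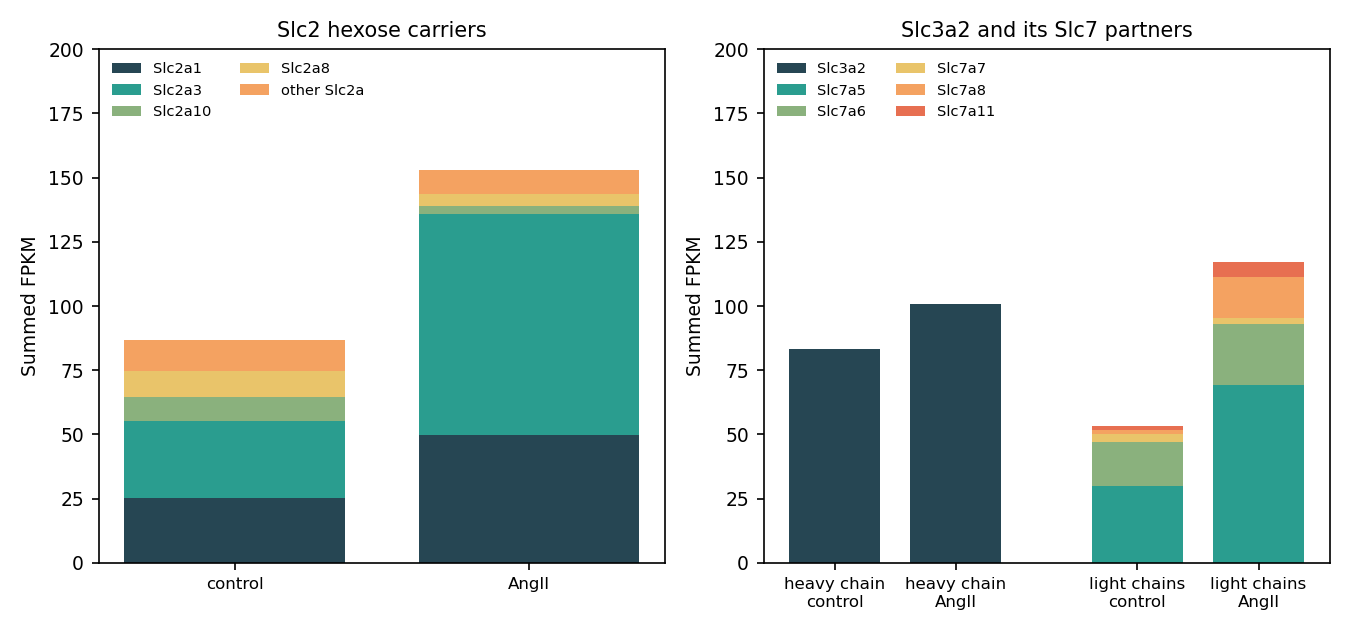
Summed FPKM of the Slc2 hexose carriers (left) and of the heavy chain Slc3a2 beside its Slc7 light chains (right), in control and after AngII, with colours for genes and no error drawn. The left bars reach 86.6 and 153 FPKM, and the light chain bars reach 53.3 and 117 FPKM beside 83.1 and 100.7 FPKM for Slc3a2.

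In the monocarboxylate family no expressed member was 2-fold higher. Slc16a3 encodes MCT4, the lactate exporter of glycolytic cells, and was level at 17.6 FPKM (10.1 to 25.2) without and 18.7 FPKM (10.7 to 26.6) with AngII. Slc16a1, which encodes the widely used carrier MCT1, stood at 11.9 FPKM (6.69 to 17.2) and 17.6 FPKM (10.1 to 25.1), a log2 ratio of 0.53 with overlapping bounds. Its listed interval also holds Lrig2, Mov10, Ppm1j and Rhoc, which makes its level less certain. Slc16a7, which encodes the high-affinity pyruvate and lactate carrier MCT2, stood at 4.60 FPKM (2.33 to 6.87) and 9.36 FPKM (5.10 to 13.6), a log2 ratio of 0.89 with overlapping bounds. It passed 2-fold with centred values or a pseudocount of 0.1. The locus of Slc16a7 ends on chromosome 7 at 65313572, and 2.82 kb further lie 37 pieces without an accession, all listed at the interval 65316392 to 65370150. These pieces ran from 0 to 0.663 FPKM in control and from 1.63 to 3.96 FPKM after AngII. All thus reached 1 FPKM through the AngII library only. Of the 37, 34 were at least 2-fold higher and 26 had bounds apart. The same share over all loci without an accession is not given here. Sharing 1 interval, the pieces may not be separate transcripts. Strand is not given, so whether they belong to the Slc16a7 transcript cannot be told from the table.

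The orphan carrier Slc16a4 was the lower member of this family that passed 2-fold, at 3.66 FPKM (1.67 to 5.64) without and 1.14 FPKM (0.399 to 1.88) with AngII. Its log2 ratio was -1.12 with overlapping bounds, and it was no longer past 2-fold once centred. Slc16a13 (4.28 and 2.39 FPKM), Slc16a11 (1.53 and 1.01 FPKM) and the ketone body carrier Slc16a6 (1.25 and 0.486 FPKM) were also lower with overlapping bounds. The 4 measured lactate carriers Slc16a1, Slc16a3, Slc16a7 and Slc16a8 summed to 34.4 FPKM without and 45.9 FPKM with AngII. Bsg, the chaperone that brings MCT1 and MCT4 to the membrane and named after its value was seen, was much more abundant, at 486 and 387 FPKM.

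The Slc3 and Slc7 families held the members with the largest differences in both directions. Slc7a2, a cationic amino acid carrier that brings arginine into the cell, had the lowest ratio of all members. It stood at 53.1 FPKM (31.3 to 74.8) without and 16.3 FPKM (9.52 to 23.1) with AngII, a log2 ratio of -1.64 (model SD 0.41) with bounds apart. Only 22 of the 8354 expressed symbols had a lower ratio. Its locus lies on chromosome 16 from 54752118 to 54805406. Slc7a3, another cationic carrier, was near the minimum at 0.852 and 1.63 FPKM. Slc7a2 and Slc7a3 together summed to 53.9 FPKM without and 18.0 FPKM with AngII, nearly all of it Slc7a2. Slc7a1 had no matched locus, so this sum does not stand for cationic carriers as a group.

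Slc7a5, the LAT1 light chain that imports leucine and other large neutral amino acids, stood at 30.1 FPKM (17.6 to 42.5) without and 69.4 FPKM (40.0 to 98.8) with AngII. The log2 ratio was 1.18, and the bounds overlapped by a small margin (chromosome 19, 52120727 to 52149332). Slc7a11, the xCT light chain that exchanges glutamate for cystine and so feeds glutathione synthesis, stood at 1.45 FPKM (0.751 to 2.15) and 5.84 FPKM (3.36 to 8.31). Its log2 ratio was 1.48 with bounds apart (chromosome 2, 139241141 to 139317101), and 0.75 with a pseudocount of 5. Slc7a8, the LAT2 light chain, had the highest ratio of the members, with 1.70 FPKM (0.842 to 2.56) and 16.0 FPKM (9.33 to 22.6), a log2 ratio of 2.65 with bounds apart. The listed interval of Slc7a8 on chromosome 15 (32385518 to 32894359) is shared with 16 other loci, so its assignment is uncertain. Of those 16 loci 14 were expressed, and their log2 ratios ran from -1.14 to 0.68 with 0 past 2-fold upward, so the difference at Slc7a8 did not extend over the interval. Slc7a7, the y+LAT1 light chain at the same interval, stood at 3.13 and 2.14 FPKM.

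Slc3a2, the heavy chain 4F2hc that all these light chains need, was abundant in both conditions and differed less. It stood at 83.1 FPKM (48.4 to 118) without and 100.7 FPKM (58.3 to 143) with AngII, a log2 ratio of 0.27 with bounds that largely overlapped. The y+LAT2 light chain Slc7a6 stood at 16.9 FPKM (9.85 to 24.03) and 23.7 FPKM (13.8 to 33.5). The 6 measured light chains of Slc3a2, with Slc7a10 listed at 0, summed to 53.3 FPKM without and 117 FPKM with AngII. Relative to Slc3a2 this was 0.641 (model SD 0.160) in control and 1.16 (model SD 0.291) after AngII, and 0.620 and 1.003 without Slc7a8. Slc3a1, the heavy chain rBAT of kidney and gut, was near the minimum at 1.29 FPKM in both conditions. Its light chain Slc7a9 was listed at 0.220 FPKM in control and at 0 after AngII. Slc7a6os stood at 1.30 and 1.15 FPKM.

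**Figure D3:**
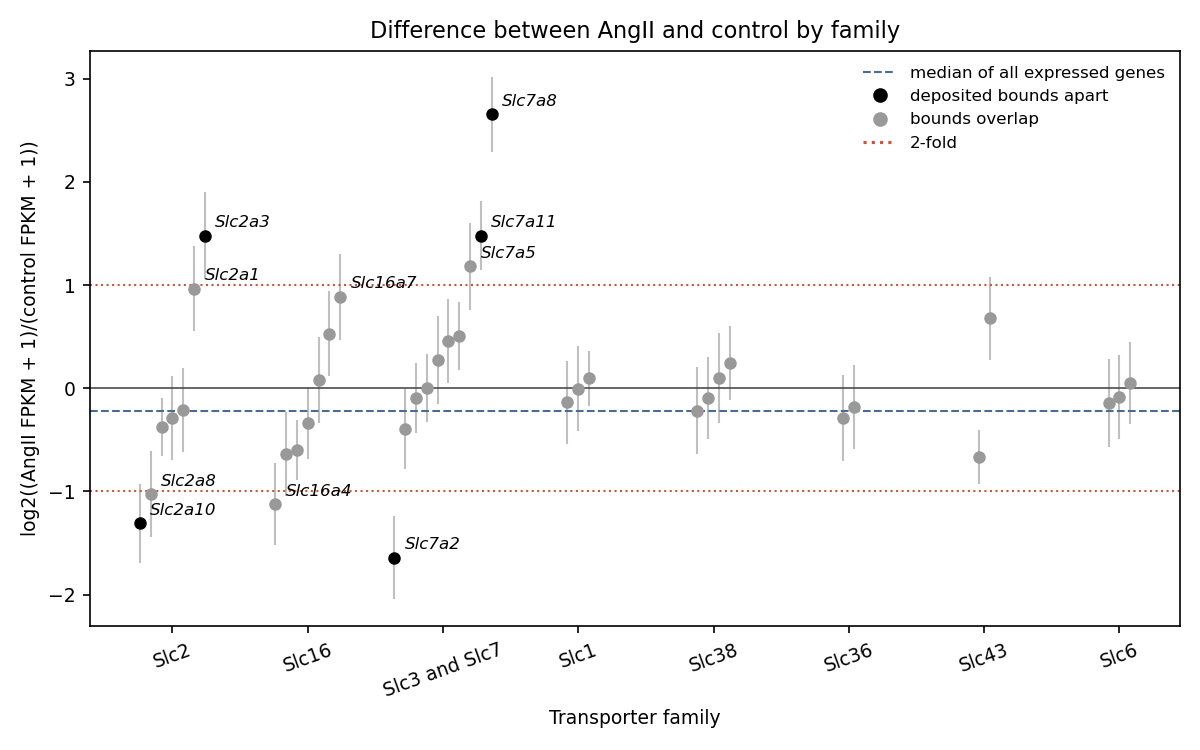
Log2 ratio of each expressed member (y axis) by transporter family (x axis), with the model SD as vertical lines. Black points have deposited bounds that do not overlap, dotted lines mark 2-fold and the dashed line the median of all expressed symbols at -0.22. Slc2 and Slc3 with Slc7 hold all black points, and Slc1, Slc38, Slc36 and Slc6 lie close to 0.

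Carriers of small neutral amino acids and of taurine were among the most abundant members and were nearly level. Slc6a6, the taurine carrier, stood at 114 FPKM (65.7 to 162) without and 103 FPKM (59.5 to 147) with AngII, the highest mean of all members. Slc1a4, the ASCT1 exchanger of alanine, serine and cysteine, stood at 101.2 FPKM (74.6 to 128) and 108 FPKM (79.7 to 137). Slc38a2, the system A carrier SNAT2 that concentrates small neutral amino acids and is a classical target of amino acid shortage, stood at 92.2 FPKM (52.2 to 132) and 98.8 FPKM (55.7 to 142). The log2 ratios of these 3 were -0.14, 0.10 and 0.10, all with overlapping bounds. Together with Slc3a2 they made up 52.2% of the summed level of all members in control and 47.6% after AngII.

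The other Slc1 members separated into expressed and silent genes. Slc1a5, the glutamine exchanger ASCT2, had 18.0 FPKM in both conditions. Slc1a3, the glial-type glutamate carrier, stood at 17.01 and 15.4 FPKM, a log2 ratio of -0.14. The glutamate carriers Slc1a1 (0.0446 and 0.131 FPKM) and Slc1a2 (0.0425 and 0.0548 FPKM) were below the minimum.

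In the Slc38 family only Slc38a2 was abundant. Slc38a9, a lysosomal protein that signals arginine to the growth kinase mTORC1, stood at 8.66 FPKM (5.23 to 12.1) and 10.4 FPKM (6.56 to 14.3). Slc38a7, a lysosomal glutamine exporter, stood at 9.17 and 7.74 FPKM and Slc38a6 at 3.08 and 2.81 FPKM. The other system A carriers Slc38a1 (0.113 and 0.112 FPKM) and Slc38a4 (0.732 and 0.447 FPKM) were below the minimum in both conditions.

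The Slc36 amino acid carriers Slc36a4 (13.3 and 11.6 FPKM) and Slc36a1 (6.04 and 4.77 FPKM) had log2 ratios of -0.19 and -0.29, close to the median of all symbols. The large neutral amino acid carriers of the Slc43 family lay on opposite sides. Slc43a1, known as LAT3, stood at 5.10 FPKM (2.70 to 7.51) and 8.76 FPKM (4.87 to 12.7), a log2 ratio of 0.68. Slc43a2, known as LAT4, stood at 2.83 FPKM (1.83 to 3.83) and 1.41 FPKM (0.800 to 2.03), a log2 ratio of -0.66. Neither was past 2-fold on this scale and the bounds of both overlapped. Slc43a3 was listed at 0 in both libraries.

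In the Slc6 family 15 of 18 members were not expressed, among them the carriers of noradrenaline (Slc6a2), dopamine (Slc6a3) and serotonin (Slc6a4), none above 0.158 FPKM. Besides Slc6a6, the glycine carrier Slc6a9 stood at 19.1 and 17.9 FPKM and the creatine carrier Slc6a8 at 9.67 and 10.05 FPKM. The listed interval of Slc6a8 is shared by 18 loci and that of Slc6a9 by 2. Over all families 44 members were not expressed, of which 18 were listed at 0 in both libraries. The remaining 26 stood under 1 FPKM in both libraries and above 0 in at least 1.

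Promoter sequences are shown for 5 members picked by hand from those for which RefSeq lists a start. Slc7a8, Slc16a4, Slc6a6, Slc38a2 and Slc3a2 also had a start and are not shown. Of the 82 members 60 had one, 31 of them expressed; Slc2a3, Slc2a10 and Slc7a2 did not. Shown are the 250 bases before the first listed start in assembly GRCr8, 5′ to 3′ along the gene, for Slc2a1 (chr5:138002272-138002521, plus strand), Slc7a5 (chr19:66872413-66872662, minus strand), Slc7a11 (chr2:136668265-136668514, minus strand), Slc2a8 (chr3:36682135-36682384, minus strand) and Slc1a4 (chr14:98761563-98761812, minus strand). The first 3 were higher after AngII, Slc2a8 was lower and Slc1a4 was abundant and level. Capitals mark matches on either strand to a CRE (TGACGTCA), an AP-1 site (TGANTCA), an amino acid response element (TGATGNAAN), the core of an antioxidant response element (TGACNNNGC), an E-box (CACGTG) or the core of a hypoxia response element (ACGTG), the last of which lies within every E-box.
Slc2a1: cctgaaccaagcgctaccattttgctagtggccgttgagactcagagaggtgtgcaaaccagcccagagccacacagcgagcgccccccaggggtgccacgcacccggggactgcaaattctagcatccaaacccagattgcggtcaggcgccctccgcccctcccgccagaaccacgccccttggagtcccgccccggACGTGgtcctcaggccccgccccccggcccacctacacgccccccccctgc
Slc7a5: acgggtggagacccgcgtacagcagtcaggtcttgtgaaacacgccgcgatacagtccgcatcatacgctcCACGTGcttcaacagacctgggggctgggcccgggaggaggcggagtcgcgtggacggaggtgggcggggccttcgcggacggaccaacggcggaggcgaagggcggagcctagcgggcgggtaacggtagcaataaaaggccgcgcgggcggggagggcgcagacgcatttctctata
Slc7a11: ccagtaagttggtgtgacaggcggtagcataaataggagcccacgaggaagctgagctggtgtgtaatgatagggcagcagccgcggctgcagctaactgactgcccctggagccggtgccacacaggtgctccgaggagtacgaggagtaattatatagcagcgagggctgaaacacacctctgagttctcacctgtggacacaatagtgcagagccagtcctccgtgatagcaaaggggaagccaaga
Slc2a8: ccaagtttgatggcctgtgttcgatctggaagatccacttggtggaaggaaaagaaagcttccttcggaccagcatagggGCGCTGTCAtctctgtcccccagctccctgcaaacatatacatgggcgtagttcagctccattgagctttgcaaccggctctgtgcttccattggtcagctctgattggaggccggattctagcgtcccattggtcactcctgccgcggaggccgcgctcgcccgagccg
Slc1a4: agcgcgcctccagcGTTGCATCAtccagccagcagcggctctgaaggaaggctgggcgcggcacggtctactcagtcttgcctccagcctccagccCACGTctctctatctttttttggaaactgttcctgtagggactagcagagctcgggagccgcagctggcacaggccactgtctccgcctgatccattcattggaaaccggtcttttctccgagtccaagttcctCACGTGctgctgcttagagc

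Slc2a1 held ACGTG 51 bases before its start and Slc7a5 an E-box 179 bases before its start. The window of Slc7a11 held none of the 6 marked motifs, and neither did those of Slc7a8 and Slc16a4, which are not shown. Slc2a8 held the antioxidant response core on the reverse strand 170 bases before its start. Of the 31 expressed members with a window, Slc1a4 was the only one with a match to the amino acid response element, on the reverse strand 236 bases before its start, and it held an E-box 20 bases before the start and a further reverse-strand match to ACGTG. Among the 31 windows of expressed members, the E-box was found in 6 (19.4%, against 5.79% of all 27457 windows of this length), ACGTG in 10 (32.3% against 16.9%) and the antioxidant core in 7 (22.6% against 10.2%). The AP-1 site was found in 3 (9.68% against 6.36%), the CRE in 1 and the amino acid response element in 1 (3.23% each, against 1.70% and 3.25%). Of 4 more motifs searched and not marked, the Sp1 box (GGGCGG) was in 54.8% against 32.4%, the NF-Y box (CCAAT) in 19.4% against 34.3%, the TATA box (TATAAA) in 9.68% against 13.1% and the NFAT core (TGGAAA) in 25.8% against 19.5%. Windows of expressed members had a median GC content of 57.2% against 52.0% over all windows, which bears on any motif with many G and C. All windows here take in genes whether or not they were expressed. The shares over expressed genes alone were not computed, so no motif can be called particular to the transporters. These matches are letters in a window of another assembly than the regions below and show no binding.

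Both histone marks were already present at nearly all expressed members in control cells. H3K4me3, a mark of promoters, had a region within 1 kb of 36 of 38 expressed members in control (94.7%, exact Clopper-Pearson 95% interval 82.3 to 99.4, for counting error only). The same 36 of 38 held it after AngII, against 96.3% of all expressed symbols in each condition. Slc7a6 and Slc3a1 had no region in either condition. H3K36me3, a mark of transcribed gene bodies, touched 35 of 38 in control (92.1%, 78.6 to 98.3) and 36 after AngII (94.7%, 82.3 to 99.4), against 95.6% and 97.5% of all expressed symbols. Of the 44 members that were not expressed, 25 had H3K4me3 in each condition (56.8%), against 51.6% and 50% of all symbols not expressed. H3K36me3 touched 11 in control (25%) and 14 after AngII (31.8%), against 36.3% and 40.4%. These backgrounds include symbols at wide intervals shared by several loci. Over symbols not expressed with coordinates of their own, the shares were 39.5% and 39.1% for H3K4me3. For H3K36me3 they were 20.3% and 25.6%, so no shortfall of H3K36me3 at the members can be read from these shares.

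Members with higher and with lower RNA could have the same H3K36me3 cover. Slc2a3, Slc2a1, Slc7a5 and Slc7a2 all had H3K36me3 over 99.8% or more of the locus in both conditions, whether their RNA was higher or lower after AngII. Slc7a11 had H3K4me3 at the upper end of its locus (139316609 to 139318291 in control and 139316199 to 139318438 after AngII) and no H3K36me3 in either condition. Slc7a3 also had H3K4me3 without H3K36me3. Slc43a2 went from 0% of its locus under H3K36me3 in control to 100% after AngII, while its RNA had a log2 ratio of -0.66. The only other expressed member with a difference of over 20 points was Slc16a13 (44.9% and 65.4%), also with lower RNA. Differences of over 20 points upward thus occurred in 2 of 38, against 7.77% of all expressed symbols, and 0 of 38 were over 20 points lower, against 2.03%.

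The H3K4me3 width differed widely among the members, abundant ones included. Slc6a6, with the highest mean RNA level, had one region of 7.80 kb in control and 6.88 kb after AngII. Widths were small at Slc16a3 (3.06 and 2.88 kb), Slc1a3 (3.52 and 3.68 kb) and Slc36a4 (2.60 and 2.72 kb), and Slc7a6 had no region. The width at Slc6a9 was also small (2.45 and 4.00 kb), at an interval it shares with Ccdc24. Other members had wide regions. Slc3a2 had a region of 20.2 kb in control and 18.7 kb after AngII, Slc38a2 one of 12.4 and 11.2 kb and Slc7a5 one of 11.9 and 12.8 kb. Slc1a4 had 16.5 kb in 5 regions in control and 12.5 kb in 3 regions after AngII, with the widest, 10.6 and 10.9 kb, at the upper end of the locus. Regions at Slc2a3 spanned 6.12 kb (159218516 to 159224635) and 6.40 kb (159218187 to 159224586), so its higher RNA came with little difference in width. Slc2a1 had 10.9 kb in control and 9.76 kb after AngII. Over the 31 expressed members with coordinates of their own and a region in both conditions, the width was smaller after AngII in 21 and larger in 10, with a median difference of -0.24 kb. Over all 6116 such symbols the median difference was 0.14 kb, with 3472 wider and 2644 narrower. Regions are whole multiples of 153 bp in control and of 160 bp after AngII, so the smallest differences lie within the bin size.

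**Figure D4:**
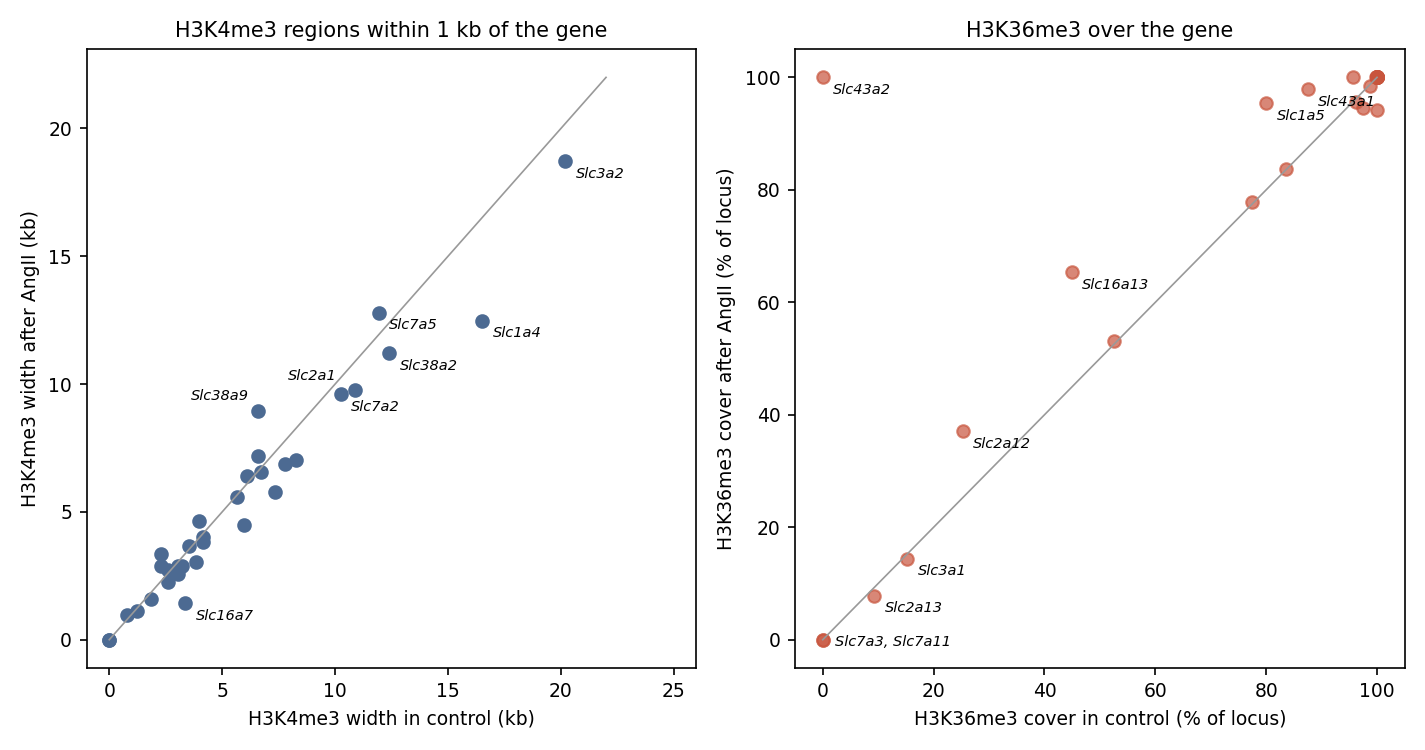
Left, summed width of H3K4me3 regions within 1 kb of each expressed member in control (x axis, kb) and after AngII (y axis, kb). Right, percent of the locus under H3K36me3 in control (x axis) and after AngII (y axis), both for the 33 expressed members with coordinates of their own and with a line of equality. Slc43a2 stands at 0% and 100% on the right, and Slc1a4 went from 16.5 to 12.5 kb on the left.

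Genes that work with these carriers were read from lists of related pathways, and their counts stand against 3.89% of all expressed symbols at least 2-fold higher and 2.96% lower. Of 21 expressed genes of the amino acid response, 2 passed 2-fold upward and 0 downward, and the median log2 ratio was 0.31. The glutathione-degrading enzyme Chac1 stood at 11.9 and 53.7 FPKM (2.08) and the stress factor Atf3 at 0.115 and 1.35 FPKM (1.08), both with bounds apart. Atf3 reached the minimum of 1 FPKM through the AngII library only. Trib3 (0.69) and the serine synthesis enzyme Psph (0.54, at an interval of 9 loci) followed, and Atf4 itself, named after its value was seen, stood at 215 and 307 FPKM (0.51). Of 18 expressed aminoacyl-tRNA synthetases, which load amino acids onto tRNA, none passed 2-fold and the median was 0.08. Cars1 (0.75), Farsb (-0.61) and Yars1 (0.53, at an interval of 11 loci) were among those furthest from 0.

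Genes of amino acid sensing at the lysosome, which couple amino acid supply to mTORC1, had a median log2 ratio of -0.49, against -0.22 over all expressed symbols. Of 19 expressed members 3 passed 2-fold downward and 0 upward, and 17 lay below 0, as did 5844 of all 8354 expressed symbols. The arginine sensors Castor1 (9.81 and 3.66 FPKM) and Castor2 (6.36 and 2.18 FPKM) both had a log2 ratio of -1.21, with bounds apart for Castor2. Nprl2 (-1.01), a subunit of the complex that restrains mTORC1, and the GTPase Rragd (-0.90) followed.

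Among 16 expressed genes of glucose entry and lactate handling, 2 passed 2-fold in each direction and the median was -0.25. Hk2, the hexokinase that traps glucose after entry, stood at 2.57 FPKM (1.33 to 3.82) without and 23.1 FPKM (13.5 to 32.6) with AngII, a log2 ratio of 2.75 with bounds apart. The phosphofructokinase Pfkp was also higher (1.11) with overlapping bounds. Txnip, which restrains glucose uptake by promoting removal of GLUT1 from the surface, stood at 70.7 and 24.8 FPKM (-1.47, bounds apart). Pfkfb3, which makes an activator of glycolysis, was lower too (-1.12, bounds apart). Of 13 expressed genes of glutamine, glutathione and arginine handling, 2 passed 2-fold upward and 0 downward, and the median was -0.12. The polyamine acetylase Sat1 (1.08) and glutathione synthetase Gss (1.06) had overlapping bounds, Azin1, an activator of polyamine synthesis, stood at 19.0 and 34.5 FPKM (0.83, bounds apart), and Arg1 was at -0.57. The arginine-consuming nitric oxide synthase Nos2, named after its value was seen, was listed at 0 in both libraries.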

How the data were processed

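RNA-seq and ChIP-seq for H3K4me3 and H3K36me3 were analysed in control and AngII-treated cells, 6 of 8 samples. The 2 input libraries were not analysed here. Groups were taken from sample titles. FPKM values with bounds were deposited by the authors in 1 table for both conditions, made with TopHat, Cufflinks and Cuffdiff on rn4, per the submitters' processing notes, from RNA depleted of ribosomal RNA, per the labels. Region lists with 2 unnamed score values per region were deposited by the authors. The submitters' processing notes also name Bowtie. Neither the caller of the regions nor the depth per library was stated in the sources used here, so precision rests on the deposited bounds.

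Of 20869 loci with an accession, 77.9% matched a symbol in a RefSeq table of GRCr8, used for names only, and 15 of all 30937 loci had no usable estimate. Ratios, ranks and shares were computed over all symbols with Python 3.11.15, pandas 2.3.3 and scipy 1.17.1, on code tested on simulated data. The model SD of a ratio was propagated from the bounds. H3K4me3 was counted within 1 kb of a locus and H3K36me3 on it. The text gives values for every expressed member, for a fixed set of well-known members whatever their level, and for up to 4 genes per related list, those with the largest absolute ratio. A few genes that this rule takes in are not reported here. Members and lists were chosen with earlier results of these data known. Alternatives varied the pseudocount, scaling, FPKM minimum, threshold, locus choice, window and score.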

Additional observations from a re-analysis of the deposited data

How the results depend on the processing

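Of 45 recomputed counts, medians and shares 38 stayed within 1.5 times or within their error. For the median log2 ratio this error was the typical model SD of a single member (0.40). That is wide for a median over many members, so the recomputed medians among the 38 could hardly move. With a 1.5-fold threshold 7 members were higher and 7 lower. The number of lower members was 1 with a pseudocount of 5, 2 when centred and 2 when bounds also had to be apart, where 4 were counted in the report. Slc7a2 remained in every one of these counts and Slc2a10 in all but the pseudocount of 5. The number higher ran from 3 to 6 at 2-fold. The median log2 ratio of the members was 0.12 when centred and 0.09 at 5 FPKM or more, so its sign depends on the setting. Requiring H3K36me3 over at least 50% of the locus left 76.3% of expressed members in control and 81.6% after AngII. Of the recomputed ratios of single members 177 stayed within their model SD and 13 moved, all with another pseudocount. Scaling of AngII values, by 1.19 at most, shifted ratios by less than the model SD of any expressed member. Summing loci could change only the 3 members with several loci, and a pseudocount cannot change the sign of a ratio. That no ratio past 2-fold reversed was therefore nearly fixed in advance and is no check of these ratios. Leaving out Slc7a6os or Slc7a8 was chosen after seeing the data. No paired analysis was possible because with 1 library in a group there is nothing to pair, and for the same reason none could be left out.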

Other observations

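Of the 44 members that were not expressed, 3 had H3K36me3 cover over 20 points higher after AngII and 1 over 20 points lower. Over all 6413 symbols not expressed these counts were 430 and 89, a share for the higher ones close to that of the members. Slc16a8 stood at 0.296 and 0.209 FPKM while the share of its locus under H3K36me3 was 0% in control and 79.8% after AngII. Slc38a8 went from 0% to 49.8% and Slc1a7 from 22.3% to 50.6%, with RNA at or under 0.342 FPKM in both conditions. Slc7a12, listed at 0, went from 67.5% to 38.1% at an interval it shares with another locus. H3K4me3 was found after AngII only at Slc43a3 and in control only at Slc6a5, both listed at 0. Whether these regions belong to a neighbouring gene was not tested.

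Plasma membrane carriers of other families, read from a list of 20 with 19 expressed, had 4 members at least 2-fold higher and 1 lower, against 3.89% and 2.96% of all expressed symbols. The list was chosen by hand, and over all solute carrier genes outside the 9 prefixes 5 of 124 expressed genes (4.03%) were higher and 1 lower. The phosphate carrier Slc20a1 stood at 22.5 FPKM without and 65.2 FPKM with AngII and the bicarbonate carrier Slc4a7 at 5.57 and 14.4 FPKM, both with bounds apart. The vitamin C carrier Slc23a2 stood at 21.4 and 50.1 FPKM with overlapping bounds, and so did the phosphate carrier Slc20a2 (1.01 on the log2 ratio scale), named after its value was seen. The iron exporter Slc40a1 stood at 7.59 and 1.499 FPKM with bounds apart.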
